A study of Mus musculus with 6 samples.

Results

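B4galt6 encodes a lactosylceramide synthase, and it was examined here together with 8 other genes that carry ceramide to the gangliosides and to globotriaosylceramide: Ugcg, B4galt5, St3gal5, St8sia1, B4galnt1, B3galt4, St3gal2 and A4galt. The 9 genes were taken by platform gene symbol from 19938 measured genes. The rule reads a gene at its brightest single-symbol probeset, by the mean of the 6 arrays, and all 9 have only 1 such probeset. B4galt6 was selected on its difference between p80HT and WT on these same arrays, so its values are given as a description and are not tested, and the other 8 were chosen by their place on the same path. RNA came from splenic B cells of 3 p80HT transgenic mice with serum M-protein (a monoclonal immunoglobulin) and of 3 wild-type (WT) littermates, all 1 year old, with 1 array a mouse. The strain of both groups is C57BL/6J x SJL/J. The p80HT mice carry the coding sequence of a human lymphoma-associated NF-κB2 mutant under an H-2Kb promoter and an immunoglobulin μ enhancer, which direct it to both T and B lymphocytes. B cells were selected with magnetic beads and an antibody to B220, a surface form of CD45 on most mouse B cells.

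Glycosphingolipids are membrane lipids made by adding sugars to ceramide in the Golgi. Glucose is added first, then galactose, and the resulting lactosylceramide is the branch point. Sialic acid turns it into GM3, the simplest ganglioside, from which the longer gangliosides are built, while a further galactose turns it into globotriaosylceramide (Gb3, also called CD77), the head of the globo series. On lymphocytes these lipids gather in membrane microdomains with signalling receptors, and CD77 is known as a marker of human germinal centre B cells.

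The values are log2 probeset signals, and each difference is the p80HT mean minus the WT mean. The words rose and fell are kept for genes past the threshold, a change of 1.5-fold or more together with a limma p under 0.01 before adjustment, in a fit over all genes. The fold and the p limit are those of the study's methods, which applied them to an analysis of variance in place of limma. Of all genes, 1.22% rose (243) and 0.968% fell (193), while with each array centred on its median 183 rose and 342 fell. In 20.8% of genes the 3 p80HT arrays and the 3 WT arrays did not overlap. The background limit of an array is the 95th percentile of 1027 olfactory receptor genes on it. It lay between 7.07 and 7.68 on the p80HT arrays and between 7.31 and 7.58 on the WT arrays. The array of p80HT replicate 3 stands apart: its correlation with the other 5 arrays across genes is 0.914 to 0.925, against 0.981 or more among those 5. All 9 measured B cell markers lay above the limit on every array, and all 9 differences were negative, with a median of -0.65 and of -0.22 without p80HT replicate 3. Their summed signal (log2) was 13.98 to 15.40 in p80HT and 15.59 to 15.79 in WT. The summed signal of 11 T cell markers was 12.73 to 14.25 in p80HT and 11.74 to 12.07 in WT, with 4 of the 11 higher at the threshold (8 without p80HT replicate 3). That of 12 macrophage markers was 13.26 to 15.13 in p80HT and 12.75 to 12.89 in WT, with 1 of the 12 higher (2 without that array). The summed signal of 6 erythroid markers was 11.09 to 11.64 in p80HT and 10.63 to 10.70 in WT. Of these 6, 3 were higher, and 5 without p80HT replicate 3, whose sum is the lowest of the p80HT arrays. For 8 fibroblast markers it was 10.65 to 14.09 in p80HT, with p80HT replicate 3 the highest, and 10.42 to 10.75 in WT. For 12 markers of salivary and lacrimal glands it was 10.30 to 16.25 in p80HT and 10.18 to 10.47 in WT, and p80HT replicate 3 holds the highest value. The summed signal of 8 neutrophil markers was 10.71 to 14.04 in p80HT, with p80HT replicate 3 the lowest, and 11.59 to 13.74 in WT. Of these, 0 were higher at the threshold, and 2 without p80HT replicate 3. For 8 plasma cell markers it was 14.28 to 14.54 in p80HT and 14.27 to 14.52 in WT, with 1 higher. For 8 NK cell markers it was 10.99 to 12.04 in p80HT and 10.80 to 11.11 in WT. Of these, 0 were higher, and 1 without p80HT replicate 3. The part of these cells and tissues in the values below was not tested beyond leaving out that array. In such bulk RNA, fewer cells of a type and less RNA per cell cannot be told apart.

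Of the 8 genes tested, none rose, Ugcg fell and 7 did not pass the threshold, while B4galt6 was higher in p80HT by the difference on which it was selected. The median difference of all 9 was 0.04, and that of all genes was -0.02. Since the genes were chosen with B4galt6 known to differ, nothing is read from this count. Ugcg and B4galt6 act one after the other and differed in opposite directions, but no pattern along the path is read from them. B4galt6 was selected on its difference, and the Ugcg call was kept in only 7 of 15 alternatives of the processing. No gene for a step past lactosylceramide passed, which does not show that these genes were unchanged. The intervals of A4galt, St3gal5 and B4galnt1 given below reach past 1.5-fold, and St8sia1 and B3galt4 lay close to background.

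**Figure D1:**
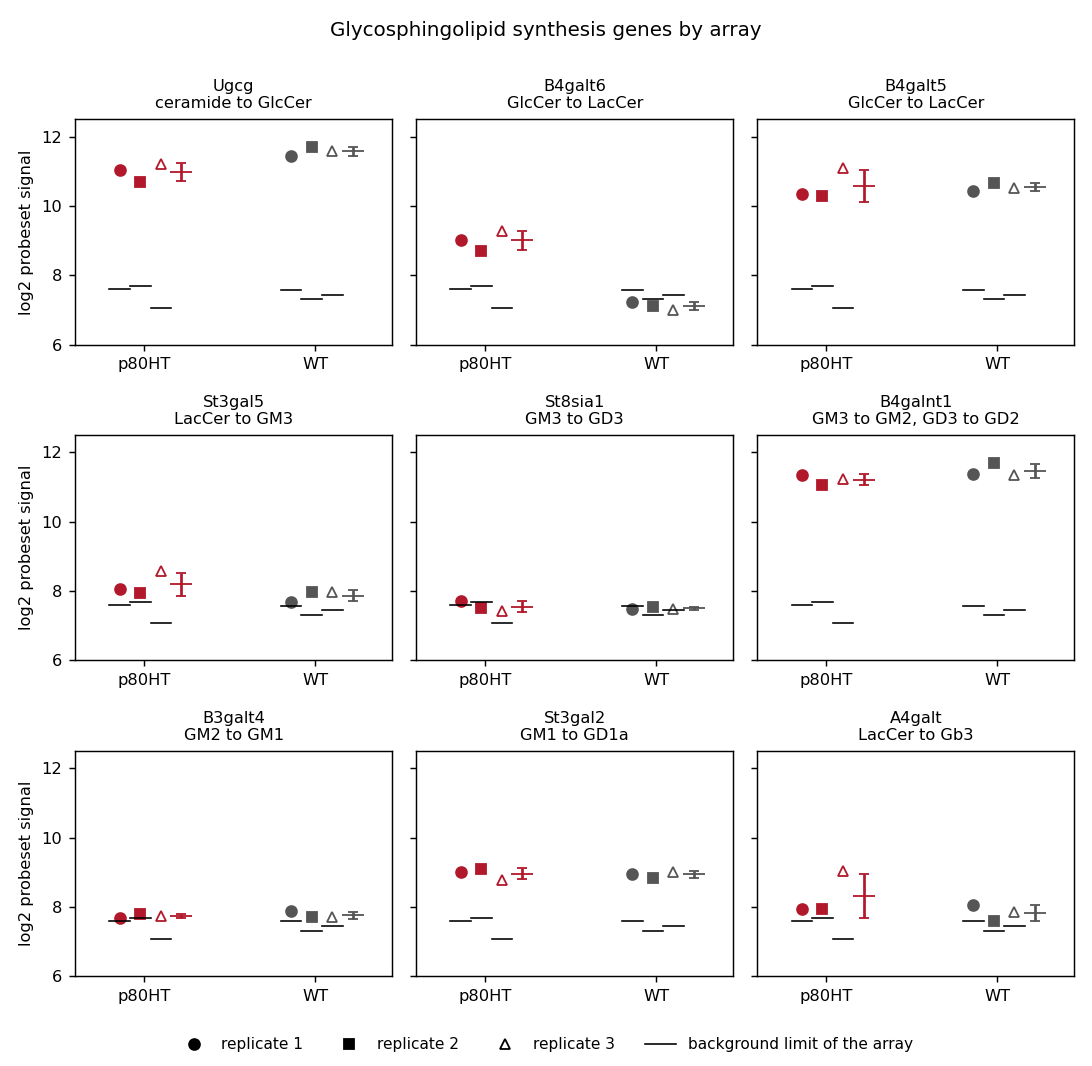
Log2 probeset signal (vertical axis) of the 9 genes along the path, 1 point per mouse, for 3 p80HT arrays (red) and 3 WT arrays (grey), with group mean and SD beside the points and each array's background limit as a short line. B4galt6 lies above the limit on all 3 p80HT arrays and below it on all 3 WT arrays, while Ugcg is lower on every p80HT array than on any WT array.

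Ugcg encodes glucosylceramide synthase, which puts the first sugar on ceramide and so opens the whole path. Its probeset (10505187) read 11.03, 10.69 and 11.21 on the p80HT arrays and 11.44, 11.70 and 11.59 on the WT arrays. All 3 p80HT values lie below all 3 WT values, and all 6 are far above the background limit. The mean was 10.98 ± 0.26 in p80HT and 11.58 ± 0.13 in WT (log2, SD, n = 3 each). Ugcg fell by 0.60 on the log2 scale (95% interval -0.99 to -0.21), which is 1.51-fold lower in p80HT and just past the threshold (limma adjusted p = 0.330 over all genes). The fall is near the threshold in size, and its call, but not its direction, depends on most single arrays. The call was lost without p80HT replicate 1 (-0.62) or 2 (-0.46) and without WT replicate 1 (-0.67), 2 (-0.54) or 3 (-0.59), and it was kept without p80HT replicate 3 (-0.72). Without p80HT replicate 1 or WT replicate 1 the difference was larger than with all 6 arrays. Without WT replicate 3 it was slightly smaller but still past 1.5-fold. In these cases only the p limit was missed. With the methods' analysis of variance Ugcg did not pass. Without p80HT replicate 3, its adjusted p in limma was 0.0157, where 2.11% of all genes were lower at an adjusted p under 0.05.

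The 250 bases before the RefSeq start of Ugcg and of B4galt5 (GRCm38.p6) are printed because Ugcg fell while B4galt5 did not pass, although both serve neighbouring steps. Capitals mark the GC box, GGGCGG on either strand, and matches of CCAAT, of which these windows hold none. The Ugcg window is chr4:59189300-59189549 on the plus strand and that of B4galt5 is chr2:167349179-167349428 on the minus strand.
Ugcg: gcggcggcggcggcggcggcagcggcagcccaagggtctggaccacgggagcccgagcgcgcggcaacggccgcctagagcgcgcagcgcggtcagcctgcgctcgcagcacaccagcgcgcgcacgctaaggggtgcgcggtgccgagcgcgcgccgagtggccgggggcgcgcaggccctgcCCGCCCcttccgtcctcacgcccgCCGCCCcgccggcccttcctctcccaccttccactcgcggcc
B4galt5: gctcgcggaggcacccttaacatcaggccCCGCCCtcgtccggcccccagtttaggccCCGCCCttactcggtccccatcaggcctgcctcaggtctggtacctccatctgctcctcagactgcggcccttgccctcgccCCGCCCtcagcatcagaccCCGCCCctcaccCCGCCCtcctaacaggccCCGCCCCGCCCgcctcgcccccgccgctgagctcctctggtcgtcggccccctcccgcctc
Both windows are rich in G and C, with 80.4% in Ugcg and 73.2% in B4galt5. The GC box, overlapping matches counted, occurs 2 times in the Ugcg window and 7 times in that of B4galt5, and 32.7% of 32851 windows of this length hold it. The consensus site of NF-κB has no match in either window, nor in those of St3gal5, St8sia1, B3galt4 and A4galt, and 7.25% of all windows hold one. Such a window says only whether these letters are in it. Of the 9 genes, 6 had a window in the table used. B4galt6, B4galnt1 and St3gal2 had none, so nothing is said of their promoters.

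B4galt6 encodes 1 of the enzymes that add galactose to glucosylceramide and thereby make lactosylceramide, and its product is best known from brain. Its probeset (10457733) read 9.03, 8.71 and 9.28 on the p80HT arrays and 7.22, 7.11 and 6.997 on the WT arrays. Every p80HT value is above every WT value, and the lowest p80HT mouse is well clear of the highest WT mouse. The mean was 9.004 ± 0.29 in p80HT and 7.11 ± 0.11 in WT (log2, SD, n = 3 each), a measured difference of 1.89. On the WT arrays the signal did not reach the background limit on any of the 3, so the WT level is a bound. With WT set at its limits, B4galt6 was at least 2.95-fold higher in p80HT. The difference did not rest on the array that stands apart: it was 1.76 without p80HT replicate 3 and between 1.84 and 2.04 without any other single array.

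B4galt5, the paralogue of B4galt6 and the lactosylceramide synthase of many tissues outside the brain, did not follow it. Its probeset (10489891) read 10.34, 10.28 and 11.10 in p80HT and 10.42, 10.65 and 10.53 in WT, so the highest and the lowest values are both p80HT arrays. The difference was 0.04 with a 95% interval of -0.51 to 0.58 (limma adjusted p = 0.994), which leaves room for a change of about 1.5-fold either way. The sign depended on single arrays, and the difference was -0.23 without p80HT replicate 3 and -0.019 without WT replicate 1. Within each array, the log2 gap between B4galt6 and B4galt5 was -1.31, -1.57 and -1.82 in p80HT and -3.20, -3.53 and -3.53 in WT. Probes differ in brightness, so the gap itself gives no order of the 2 genes. On the WT arrays B4galt6 is below the limit, so the size of the change in the gap is not read.

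**Figure D2:**
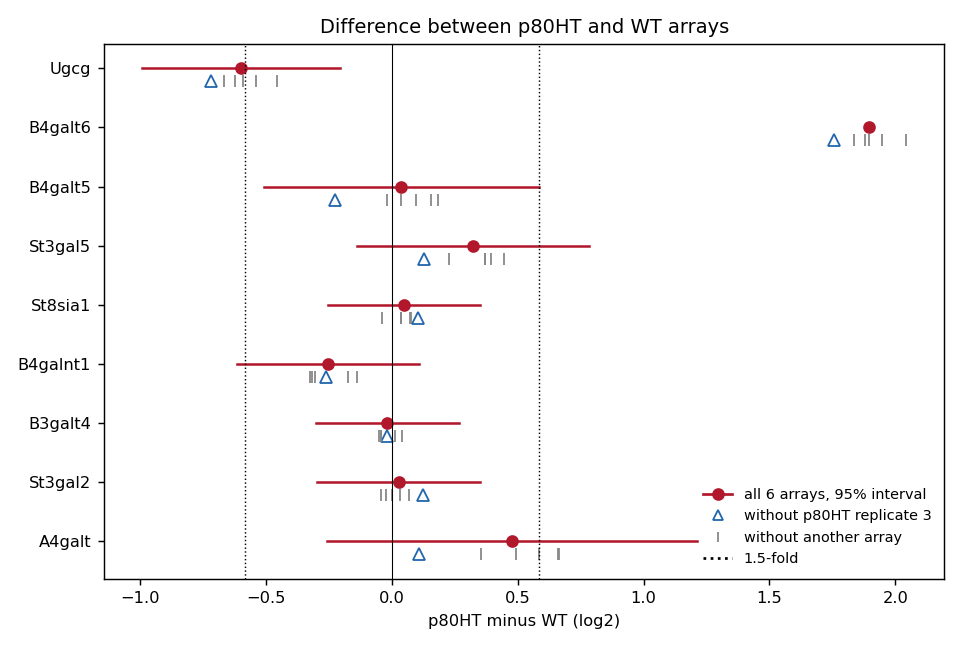
Difference between p80HT and WT (horizontal axis, log2) for the 9 genes in path order, with the 95% interval of the limma fit for the 8 tested genes, the value without p80HT replicate 3 (blue triangles) and without each other array (grey ticks). B4galt6 stays between 1.76 and 2.04 whichever array is left out, while B4galt5 and A4galt move towards or below 0 without p80HT replicate 3.

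St3gal5 encodes GM3 synthase, which commits lactosylceramide to the ganglioside path by adding sialic acid. It read 8.05, 7.95 and 8.58 in p80HT and 7.68, 7.96 and 7.97 in WT. The groups overlap, with p80HT replicate 3 the highest of the 6. Its difference was 0.32 (95% interval -0.14 to 0.79, limma adjusted p = 0.618) and 0.13 without that array. St8sia1 encodes GD3 synthase, which adds a further sialic acid to GM3. It read 7.72, 7.50 and 7.44 in p80HT and 7.48, 7.55 and 7.48 in WT, at about the background limit, which it passed on 2 arrays of each group. The difference of 0.05 (95% interval -0.25 to 0.35) is thus a comparison of values close to background.

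B4galnt1 encodes the N-acetylgalactosaminyltransferase that makes GM2 from GM3 and GD2 from GD3. It read 11.36, 11.06 and 11.23 in p80HT and 11.36, 11.70 and 11.34 in WT, all far above the limit. The groups overlap, and the difference was -0.25 (95% interval -0.62 to 0.11, limma adjusted p = 0.619). B3galt4, the galactosyltransferase gene that leads from GM2 to GM1, had nearly the same values in both groups, at 7.69, 7.80 and 7.75 in p80HT and 7.88, 7.70 and 7.71 in WT. Its difference was -0.02 (95% interval -0.30 to 0.27), at a signal only slightly above the limit. St3gal2 encodes a sialyltransferase that takes GM1 to GD1a. It read 9.02, 9.10 and 8.77 in p80HT and 8.95, 8.84 and 9.02 in WT, a difference of 0.03 (95% interval -0.30 to 0.35). The intervals of St8sia1, B3galt4 and St3gal2 all end short of 1.5-fold in either direction. For St8sia1 and B3galt4, whose signal is close to background, this bounds the signal and not a change in transcript.

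A4galt encodes Gb3 synthase, which takes lactosylceramide out of the ganglioside path. It read 7.94, 7.95 and 9.05 in p80HT and 8.05, 7.59 and 7.87 in WT. Only p80HT replicate 3 stands above the WT range, and the other 2 p80HT arrays lie within it. The difference was 0.48 (95% interval -0.26 to 1.21, limma adjusted p = 0.652) and 0.11 without that array. Thus A4galt, St3gal5 and B4galt5, and also B4galt6 (9.28), have their highest value on p80HT replicate 3. That array also carries the highest gland, fibroblast, macrophage, T cell and NK cell marker signals and the lowest B cell and neutrophil marker signals. Whether these cells and tissues contribute to the values of the genes was not tested.

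The surrounding pathway was examined through 9 lists of other genes, 93 in all, of which 86 are measured. None of the 86 rose, 1 fell and 85 did not pass, with a median difference of 0.02 (all genes: 1.22% rose, 0.968% fell). None passed an adjusted p under 0.05 in limma, against 11 of all genes (0.0552%). The gene that fell is Gla, which encodes the lysosomal α-galactosidase that removes the outer galactose of Gb3. It read 10.89, 11.01 and 9.77 in p80HT and 11.70, 11.72 and 12.05 in WT, so all p80HT arrays are lower and p80HT replicate 3 is the lowest. Gla fell by 1.27 on the log2 scale (limma adjusted p = 0.287). It was at -0.88 and still past the threshold without p80HT replicate 3 (limma adjusted p = 0.0052). In that fit 2.11% of all genes were lower at an adjusted p under 0.05. Leaving out WT replicate 1 (-1.33), 2 (-1.32) or 3 (-1.16) ended the call, as did quantile normalization (-1.22) and the methods' analysis of variance. In all of these the difference stayed past 1.5-fold, so only the p limit was missed. The other 12 measured genes of glycosphingolipid breakdown did not pass, and the list's median was 0.08.

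**Figure D3:**
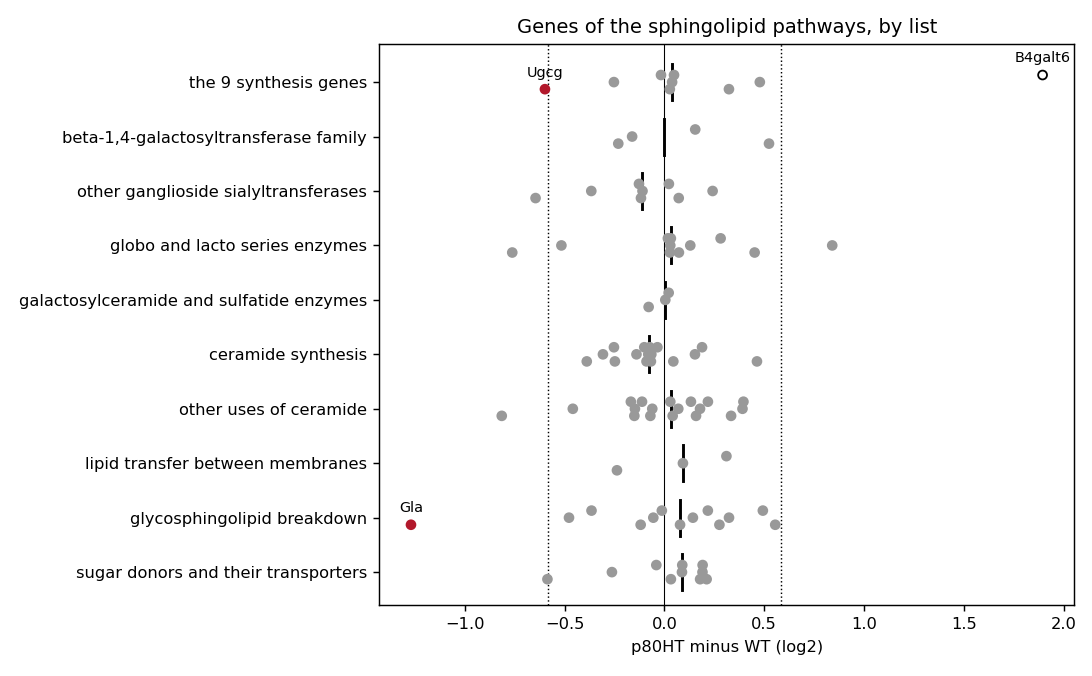
Difference between p80HT and WT (horizontal axis, log2) of every measured gene, 1 point each, for the 9 synthesis genes and the 9 further lists, with black bars at the list medians and dotted lines at 1.5-fold. B4galt6 (open black) was selected on this difference, of the other genes only Ugcg and Gla (red) pass the threshold, and the list medians lie between -0.11 and 0.09.

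Upstream of Ugcg, 16 measured genes of ceramide synthesis had a median of -0.08, and none passed. The smallest p belonged to Sptlc1, a subunit of serine palmitoyltransferase, which starts sphingolipid synthesis (-0.25), and to Sptssb, a small subunit of the same enzyme (-0.31, or -0.17 without p80HT replicate 3), whose signal lay below the limit on all arrays. Of 18 genes for other uses of ceramide, with a median of 0.04, none passed either. Sgms1, which encodes a sphingomyelin synthase that competes with Ugcg for ceramide, read 9.47, 9.58 and 8.51 in p80HT and 9.995, 10.08 and 9.93 in WT. The p80HT arrays were all below the WT arrays, with a difference of -0.82 (limma adjusted p = 0.406). Without p80HT replicate 3 the difference was -0.48, short of 1.5-fold (limma adjusted p = 0.036). Sgpl1, the lyase gene that ends sphingolipid breakdown, had a difference of 0.33. The 3 lipid transfer genes ranged from -0.24 for Cert1, the ceramide carrier, to 0.31 for Gltp, a glycolipid carrier. Without p80HT replicate 3 Cert1 was at -0.0084 and Gltp at 0.11.

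Of the galactosyltransferase relatives of B4galt6, 4 were measured and none passed. B4galt7, an enzyme of proteoglycan linker synthesis, was at -0.23. B4galt4 was at 0.52, or 0.17 without p80HT replicate 3, and its signal passed the background limit on only 1 p80HT array and no WT array. The 8 other ganglioside sialyltransferases had a median of -0.11, with St6galnac3 at -0.65 and St3gal3 at -0.37, neither past the threshold and both closer to 0 without p80HT replicate 3 (-0.30 and -0.11). Of 11 globo and lacto series enzymes, with a median of 0.03, the smallest p belonged to Gcnt2, a branching enzyme of lactosamine chains (0.45), and B3galnt1, which makes globoside from Gb3 (0.28). On the galactosylceramide branch, Fa2h and Gal3st1 were at -0.08 and 0.02, and at -0.028 and 0.26 without p80HT replicate 3. B3galnt1 and Fa2h were each above the background limit on only 1 p80HT array and on no WT array. Among 10 genes for sugar donors and their transporters, Cmah, which converts the common mouse sialic acid to its glycolyl form, was at -0.59 (limma adjusted p = 0.426) and Galt, of galactose metabolism, at -0.26. Without p80HT replicate 3 they were at -0.37 and -0.10. None of these 10 passed, and the median was 0.09.

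Of the nearest measured genes on the chromosome of B4galt6, 5 on each side in the GRCm38.p6 gene table, 1 of the 10 passed the threshold. Over all genes the shares were 1.22% higher and 0.968% lower, and nothing is read from this count. Garem1, an adaptor of growth factor receptor signalling, read 6.91, 7.01 and 7.04 in p80HT and 6.66, 6.20 and 6.24 in WT, a difference of 0.62 (limma adjusted p = 0.284) at a signal below the background limit on all 6 arrays. The call ended without p80HT replicate 1 (0.66) or 2 (0.61) and without WT replicate 2 (0.54) or 3 (0.56). Without p80HT replicate 1 or 2 the difference was still past 1.5-fold, so there only the p limit was missed. The call also ended with median centring (0.53), the methods' analysis of variance and the replicate block, so that it was kept in 7 of 14 alternatives. Trappc8, next to B4galt6 on one side and a subunit of a vesicle tethering complex, was at -0.27, and the ubiquitin ligase genes Rnf125 and Rnf138 were at 0.46 and -0.37. On the other side Ttr, the thyroxine carrier transthyretin, was at 0.72, and at 0.32 without p80HT replicate 3. That array held its highest value, and on all others Ttr lay below the background limit. The 4 desmoglein genes beyond Ttr lay below the limit except Dsg2 on that same array.

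Among 11368 genes above the background limit in at least 1 group, the 5 with values most like those of B4galt6 were Cd80, Ehf, Ryk, Csf2rb and Adgrl2. Likeness was the root mean square difference of mean-centred log2 values over the 6 arrays, and it was 0.17 for Cd80, 0.20 for Ehf, 0.22 for Ryk, 0.23 for Csf2rb and 0.24 for Adgrl2. A match of this kind rests mainly on the size of the difference between the groups and is a description. Cd80, a ligand of the co-stimulatory receptor CD28, read 10.79, 10.55 and 10.80 in p80HT and 8.79, 8.90 and 9.04 in WT. Like B4galt6, it was lowest among the p80HT mice in replicate 2. The same holds for Ryk, a Wnt receptor gene, and Csf2rb, a cytokine receptor chain, but not for Ehf, an ETS transcription factor gene, or Adgrl2, an adhesion receptor gene, which were lowest in replicate 1.

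**Figure D4:**
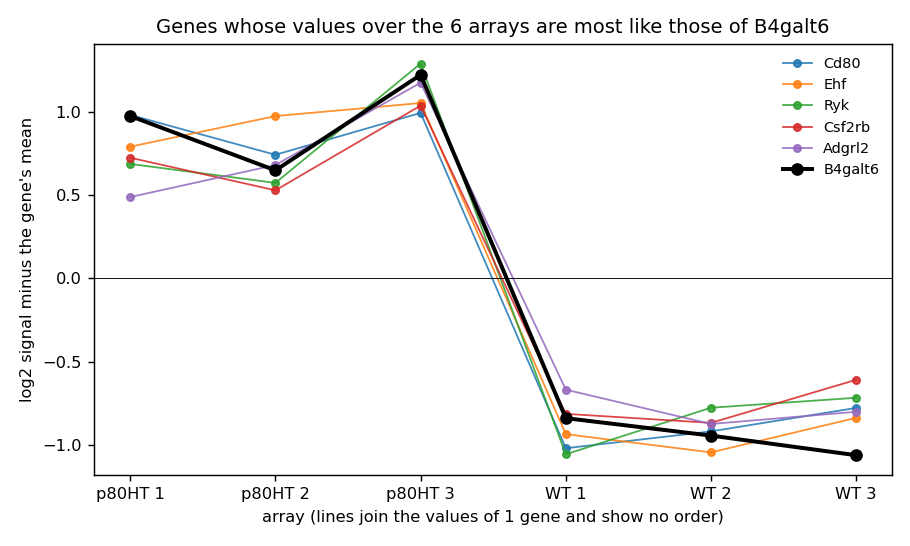
Log2 signal minus the gene's own mean over 6 arrays (vertical axis) for B4galt6 (black) and the 5 genes most like it, with the 3 p80HT arrays left of the 3 WT arrays. All 6 genes lie above their mean on every p80HT array and below it on every WT array.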

How the data were processed

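RNA of B220-selected splenic B cells was hybridised to Affymetrix Mouse Gene 1.0 ST arrays, read in 1 colour, 1 array for each of 3 p80HT and 3 WT mice. The deposited values are log2 probeset signals that the authors made with RMA in Partek, and versions, settings and the annotation release are not given in the sources used here. Of 28853 probesets, 21789 carry exactly 1 gene symbol in the platform table (1621 carry several and 5443 none), which gives 19938 genes. Differences between p80HT and WT were fitted without a block in limma 3.58.1 (lmFit and eBayes, 2-sided, R 4.3.3), with Benjamini-Hochberg adjustment over all genes. The fold and p limits are those of the study's methods, which used an analysis of variance. Arrays have no read depth, and precision is limited by 3 mice a group and by dim signals. Exact permutation was not used, since its smallest p with 3 mice a group is 0.10.

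The members and lists were chosen with earlier results of these data known. Named were the 9 genes, of each pathway list the genes past the threshold or else the 2 with the smallest p, the 5 genes most like B4galt6 and its neighbours. Ttr and Dsg2 count among the neighbours. Listed genes without a value in the table used were not analysed here. Promoter windows come from RefSeq (GRCm38.p6). Tables and figures were made with Python 3.11.15, pandas 2.3.3 and matplotlib 3.10.9. The fit was tested on simulated data with independent noise and no array that stands apart, so that test does not cover the effect of p80HT replicate 3. Alternatives were leaving out each array, the replicate number as a block, ordinary least squares as in the methods' analysis of variance, an intensity trend, array weights, quantile normalization, median centring, a filter at the 25th percentile of mean signal, probeset means, every probeset and another fold threshold.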

Additional observations from a re-analysis of the deposited data

How the results depend on the processing

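B4galt6 stayed between 1.76 and 2.04 under all 15 alternatives. Ugcg kept its call in 7 of 15. It lost it under quantile normalization (-0.53), the methods' analysis of variance and the replicate block, where 0 of the 9 genes were lower, and without any single array but p80HT replicate 3 (range of the differences -0.72 to -0.46, with 0 to 1 of the 9 lower). Differences near 0 changed sign. B4galt5 was at -0.20 with array weights and -0.054 with median centring (-0.23 to 0.19 without single arrays), St8sia1 at -0.044 with median centring and -0.012 with quantile normalization (-0.038 to 0.11 without single arrays), and St3gal2 at -0.065 with median centring (-0.042 to 0.12 without single arrays). B3galt4 ranged from -0.0505 to 0.042 without single arrays. Fa2h (0.032) and Cert1 (0.13) turned with array weights, and Gal3st1 with median centring (-0.071) or quantile normalization (-0.030). Without single arrays Fa2h ranged from -0.14 to 0.0037 and Gal3st1 from -0.14 to 0.26.

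Of the pathway genes, 2 were lower with array weights or the replicate block and 0 with quantile normalization or the methods' analysis of variance, with 0 to 1 without single arrays. Under the block the second was Sgms1. Over all genes, array weights gave 478 higher, 422 lower and 7155 at an adjusted p under 0.05, the methods' analysis of variance 119, 77 and 0, and 2-fold in place of 1.5-fold 116 higher and 56 lower. Median centring gave 342 lower, quantile normalization 17 at an adjusted p under 0.05 and the replicate block 6. Without single arrays these counts ranged from 137 to 401 higher, 69 to 290 lower and 0 to 931 at an adjusted p. The deviations of same-numbered mice correlated at 0.07, -0.24 and 0.07, and those of different-numbered mice at -0.20 to 0.29. With 3 arrays a group, 1 of which stands apart, this cannot decide whether the numbers pair littermates.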
